A study of Homo sapiens with 6 samples.

Results

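The USP genes encode ubiquitin-specific proteases, a large family of cysteine proteases that cut ubiquitin from other proteins. All RefSeq protein-coding genes of GRCh38 with the symbol USP and a number from 1 to 54, with or without a trailing letter, were taken, apart from the Y chromosome and the multi-copy USP17L genes. This rule gave 50 of 20037 coding genes. Their N6-methyladenosine (m6A) peaks come from the human glioblastoma line U-251 MG, in cells with a short hairpin RNA against TRA2A (shTRA2A), an RNA-binding regulator of splicing, cells with a hairpin against METTL3 (shMETTL3), the methyltransferase that writes m6A, and cells with a control hairpin (shNC). In methylated RNA immunoprecipitation sequencing, fragmented RNA is pulled down with an m6A antibody and sequenced beside its input. Each condition had 1 immunoprecipitated and 1 input library and is represented by 1 peak list, so differences between conditions are described and none was tested or checked against replicates. Both knockdown lists are set against the same shNC list.

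Ubiquitin marks proteins for the proteasome, steers membrane receptors through endosomes and changes how proteins bind each other, and USP enzymes undo these marks. Family members act on histones, on DNA repair factors, on splicing factors, on damaged proteins and on receptors such as EGFR, which the study's title names. On messenger RNA, m6A is known to gather in long internal exons and around stop codons, and it influences splicing, decay and translation of the transcript. A peak needs both a transcript and its enrichment by the antibody. From a peak list, less RNA and less methylation of that RNA therefore cannot be told apart. How far each hairpin lowered its target is not measured by the lists.

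The lists held 2736 shTRA2A, 5433 shMETTL3 and 9206 shNC peaks, and 91.9 to 92.6% of each list was assigned to a coding gene. How deeply each library was sequenced is not known here. The labels do not say how the hairpins were delivered or whether a line is 1 clone. Each peak has a score from the authors' peak caller, of unstated scale, whose median was 8 in shTRA2A, 8.4 in shMETTL3 and 12.4 in shNC. Scores and ranks are therefore read within a list. Of 6 glioma or astrocyte markers, NES, CD44 and SOX9 had an shNC peak and VIM, GFAP and S100B had none in any list. Of 7 markers of other cell types, none had a peak in shTRA2A or shNC.

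Of the 50 USP genes, 26 had a peak in at least 1 list and 24 had none, beside 71.9% of all coding genes with none. In the shTRA2A list 9 members had a peak, 18% (8.58 to 31.4%), beside 8.85% of all coding genes. In the shMETTL3 list 16 members had a peak, 32% (19.5 to 46.7%), beside 15.6%, and in the shNC list 22, 44% (30.0 to 58.7%), beside 19.9%. Intervals are exact Clopper-Pearson 95% intervals, which treat genes or peaks as independent and cover counting error alone. When each list was limited to its best 2736 peaks, the numbers of USP genes with a peak were 9, 10 and 14 in shTRA2A, shMETTL3 and shNC. That length is the whole shTRA2A list, so the cut could lower the shMETTL3 and shNC counts alone. The shares over all coding genes at that length were not computed.

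USP gene bodies are long, with a median of 86784 nt in the 26 members with a peak and 57516 nt in the 24 without, against 24115 nt in all coding genes. Of the members, 36 were among the longest 6679 coding genes, with bodies over 46114 nt. Within that class, 22.2% of members had an shTRA2A peak, 33.3% an shMETTL3 peak and 47.2% an shNC peak, beside 13.8%, 23.1% and 29.0% of all coding genes. The 11 members in the middle length class had shares of 9.09%, 36.4% and 36.4%, beside 9.06%, 16% and 21% of all coding genes. Over all coding genes the share with a peak was higher in the longest class than in the middle class in every list. For the members this order held in shTRA2A and shNC and not in shMETTL3, and the part of body length in the USP counts was not tested.

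**Figure D1:**
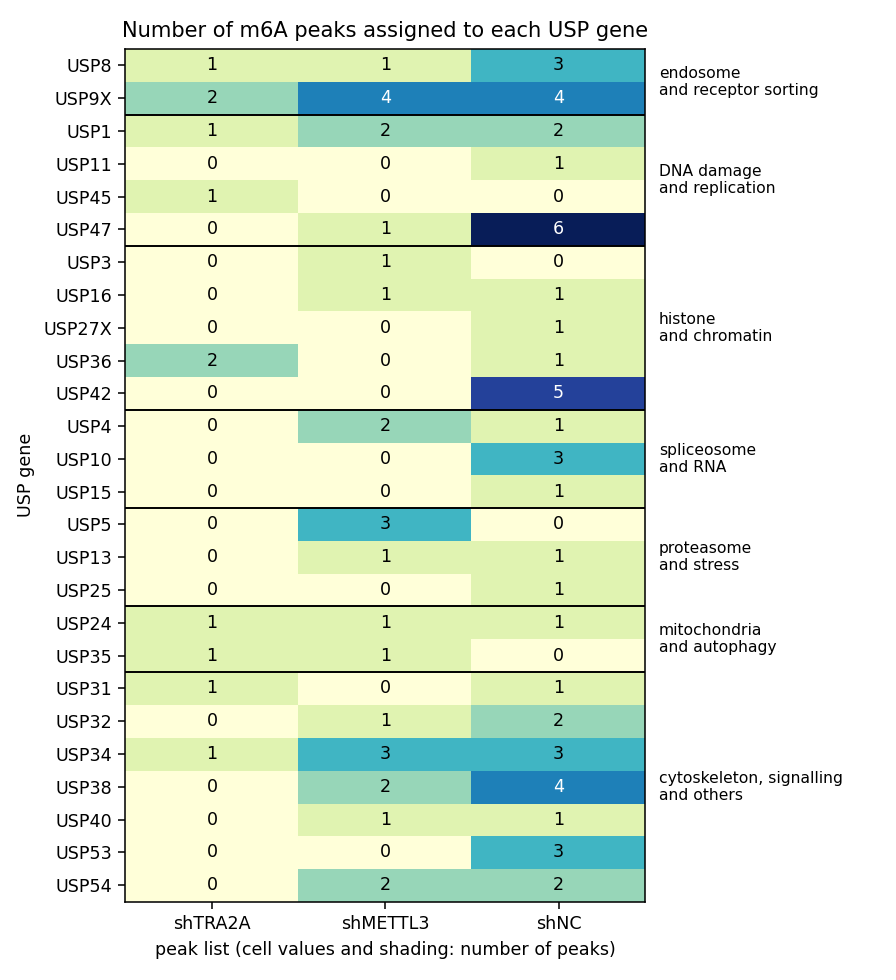
Number of peaks assigned to each of the 26 USP genes with a peak (rows, grouped by role) in the shTRA2A, shMETTL3 and shNC lists (columns), with the number printed in each cell. USP47 and USP42 had no shTRA2A peak and 6 and 5 shNC peaks, while USP5 had 3 shMETTL3 peaks and none in the other lists.

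The comparison of shTRA2A with shNC asks which control peaks are found again when TRA2A is targeted. Of the 22 USP genes with an shNC peak, 7 were found in shTRA2A too, 31.8% (13.9 to 54.9%), beside 29.1% of all coding genes with an shNC peak. These were USP1, USP8, USP9X, USP24, USP31, USP34 and USP36. Peak by peak, 6 of the 48 shNC peaks in USP genes shared at least 1 base with an shTRA2A peak, 12.5% (4.73 to 25.2%), beside 9.65% over all coding genes. Both shares of the USP genes were near the background. In the other direction, 6 of 11 shTRA2A peaks in USP genes lay on an shNC peak, 54.5% (23.4 to 83.3%), beside 34.6%, and 7 of the 9 shTRA2A peak genes had an shNC peak, 77.8% (40.0 to 97.2%), beside 65.6%.

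The same comparison for METTL3, a subunit of the enzyme that writes the mark, gave 13 of 22 USP genes with an shNC peak that also had an shMETTL3 peak, 59.1% (36.4 to 79.3%), beside 47.7% of all coding genes with an shNC peak. With each list limited to its better-scoring 50% this was 8 of 16 genes, and with the best 2736 peaks of each list 6 of 14. Of the 48 shNC peaks, 11 were overlapped in shMETTL3, 22.9% (12 to 37.3%), beside 18%, and under these settings 6 of 30 and 4 of 25. With peaks on the 25 nt grid and at most 1000 nt wide alone it was 7 of 37. The 47.7% and 18% belong to the full lists, and the shares over all coding genes were not recomputed under these settings. In the other direction 12 of 27 shMETTL3 peaks in USP genes lay on an shNC peak, 44.4% (25.5 to 64.7%), beside 33.1%, and 13 of the 16 shMETTL3 peak genes had an shNC peak, 81.2% (54.4 to 96.0%), beside 60.9%. All 4 intervals held the background value.

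**Figure D2:**
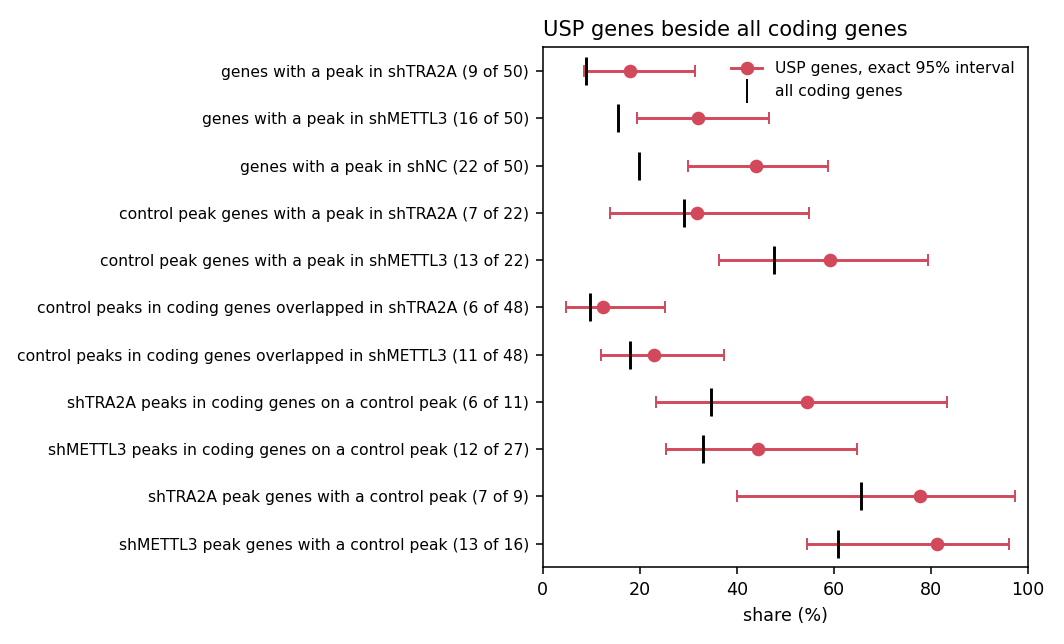
Share in percent (x axis) of USP genes or their peaks that met each description on the y axis (red points, exact 95% intervals) and of all coding genes or their peaks (black bars). The shMETTL3 and shNC shares of genes with a peak, 32% and 44%, have intervals above the coding-gene values of 15.6% and 19.9%, and the other intervals reach the coding-gene value.

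Most shNC peaks of USP genes had no counterpart in the knockdown lists. Of the 48, 3 were overlapped in both knockdown lists, 3 in shTRA2A alone, 8 in shMETTL3 alone and 34, or 70.8%, in neither, beside 77.4% in neither over all coding genes. All USP shNC peaks found in a knockdown list scored above the lowest 40% of the shNC list. In the best-scoring 20% of the shNC list, 4 of 13 USP peaks were found in shTRA2A and 5 in shMETTL3, beside 28.6% and 44.8% of all coding-gene peaks there. In the next 20% it was 1 and 3 of 14 (all coding genes 9.4% and 20.9%), and in the middle 20% 1 and 3 of 7 (5.57% and 13.6%). The USP counts therefore had no steady order within these classes. None of the 14 USP peaks in that lowest 40% was found in either list, beside 1.03 to 7.44% of coding-gene peaks there. Width was compared in the same way. Of the USP shNC peaks on the 25 nt grid and at most 1000 nt wide, 5 of 23 over 100 nt were found in shTRA2A and 7 in shMETTL3, against 1 and 1 of 14 that were 100 nt or narrower. The USP shares were 21.7% and 30.4% over 100 nt, beside 13.9% and 29.2% over all coding genes, and 7.14% and 7.14% at 100 nt or less, beside 4.68% and 8.67%. All coding genes thus had the same order by width.

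**Figure D3:**
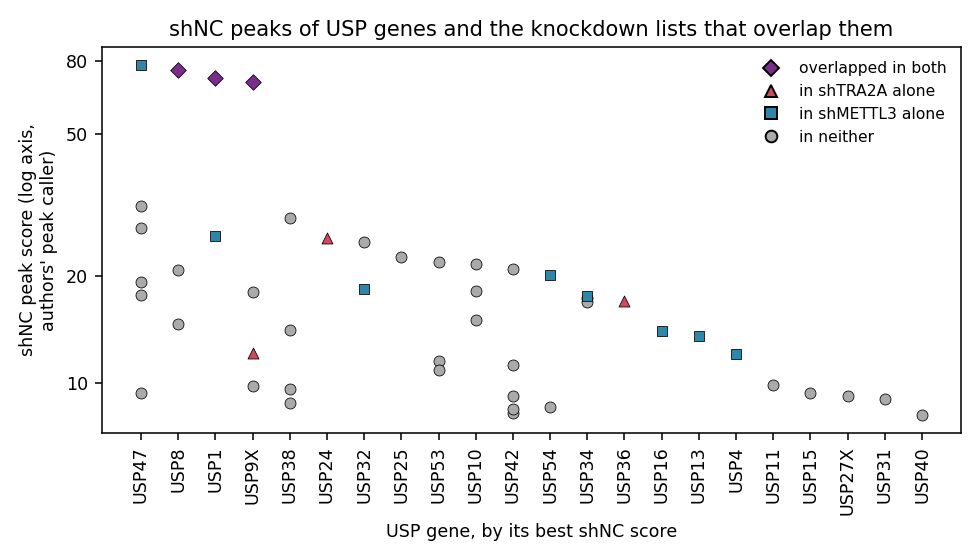
Score of each shNC peak (y axis, log scale, unit of the authors' peak caller) in the 22 USP genes with one (x axis, by best score), with the symbol showing which knockdown lists overlap the peak. The best peaks of USP47, USP8, USP1 and USP9X, at 69.7 to 77.8, stand above all other USP peaks, which score 31.4 or less.

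USP47, USP8, USP1 and USP9X each carried an shNC peak far above the rest of the family, and these peaks ranked 100 to 131 of 9206 in that list. They belong to the endosomal and the DNA repair groups and were singled out after their scores were seen. The fifth gene by best shNC score, USP38, had 29.0 at rank 988.

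Among the members that act on endosomes and receptors, USP8 and USP9X had peaks in every list. USP8 removes ubiquitin from internalised receptors, EGFR among them, on endosomes. It had 1 shTRA2A, 1 shMETTL3 and 3 shNC peaks. The shTRA2A peak at chr15:50481628-50481927 (score 11.2, rank 257 in its list) and the shMETTL3 peak at chr15:50481578-50481952 (score 10.6) both lay inside the strongest shNC peak of the gene, at chr15:50481553-50482002 (score 75.5). All lists thus placed a USP8 peak on the same stretch, with the same midpoint in shTRA2A and shNC. The other shNC peaks of USP8, at chr15:50482028-50484286 (score 14.6) and chr15:50489844-50490349 (score 20.8), were not overlapped in either knockdown list. A further shTRA2A peak at chr15:50494271-50495862 touched the bodies of both USP8 and USP50 and was assigned to neither. It lay on the plus strand, which is that of USP8 and not of USP50, but assignment took no account of strand.

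USP9X, a large deubiquitinase of trafficking and signalling proteins, had 2 shTRA2A, 4 shMETTL3 and 4 shNC peaks, and it held the most shMETTL3 peaks of the family. An shTRA2A peak of 275 nt at chrX:41216148-41216422 (score 12.9, rank 129 in its list) lay inside the strongest shNC peak of the gene, at chrX:41215998-41216447 (score 69.7). The shMETTL3 peaks at chrX:41215998-41216047 (score 14.2) and chrX:41216198-41216522 (score 8.35) also touched that shNC peak. The 3 lists therefore shared this site. A second shared site held the same 50 nt, chrX:41229759-41229808, in shTRA2A (score 7.87) and shNC (score 12.2), while the nearest shMETTL3 peak began after a gap of 25 nt. The shNC peaks at chrX:41123556-41123630 and chrX:41230588-41232427 had no overlap. The other 6 members of the group, USP2, USP6, USP12, USP33, USP46 and USP50, had no assigned peak.

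Of 7 members known from DNA damage and replication, 2 had an shTRA2A peak, 2 an shMETTL3 peak and 3 an shNC peak. All coding genes had shares of 8.85%, 15.6% and 19.9%, and groups of this size are too small to set against them. USP1 deubiquitinates FANCD2 and PCNA in DNA crosslink repair and damage bypass. It had 1 shTRA2A, 2 shMETTL3 and 2 shNC peaks. The shTRA2A peak at chr1:62444818-62445092 (score 15.0) and an shMETTL3 peak at chr1:62444843-62445117 (score 6.47) lay inside the shNC peak at chr1:62444793-62445342 (550 nt, score 71.6). That shTRA2A peak was the best of the family in its list, at rank 84 of 2736, whereas the shMETTL3 peak stood at rank 4733 of 5433. Near the 3′ end there was no shTRA2A peak, and an shMETTL3 peak of 50 nt (score 9.47) lay inside the shNC peak at chr1:62450461-62450735 (score 25.9).

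USP47, which acts on DNA polymerase beta in base excision repair, had no shTRA2A peak, 1 shMETTL3 peak and 6 shNC peaks. It held the most shNC peaks of the family, counting 1 on the opposite strand that lay inside a peak of the gene's strand. USP42 came next with 5. USP47 also held the best shNC score of the family. The shMETTL3 peak of 100 nt at chr11:11942873-11942972 (score 8.27) lay inside that best shNC peak, at chr11:11942648-11943097 (score 77.8, rank 100). The other shNC peaks scored 9.41 to 31.4 and were not overlapped. Of the shNC peaks in all coding genes that stood in the best-scoring 20%, 28.6% were found in shTRA2A. The best USP47 peak stood in the top 1.09%, a narrower class for which this share was not computed. The best shNC peaks of USP8, USP1 and USP9X, at ranks 113, 125 and 131, were overlapped in shTRA2A. USP11, described in homologous recombination, had no knockdown peak and 1 wide shNC peak (5182 nt, score 9.88). USP45, which acts on the repair nuclease subunit ERCC1, had 1 shTRA2A peak of 2184 nt at chr6:99443652-99445835 (score 7.15, rank 2597 of 2736) and none in the other lists. USP28, USP37 and USP48 had no peak.

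**Figure D4:**
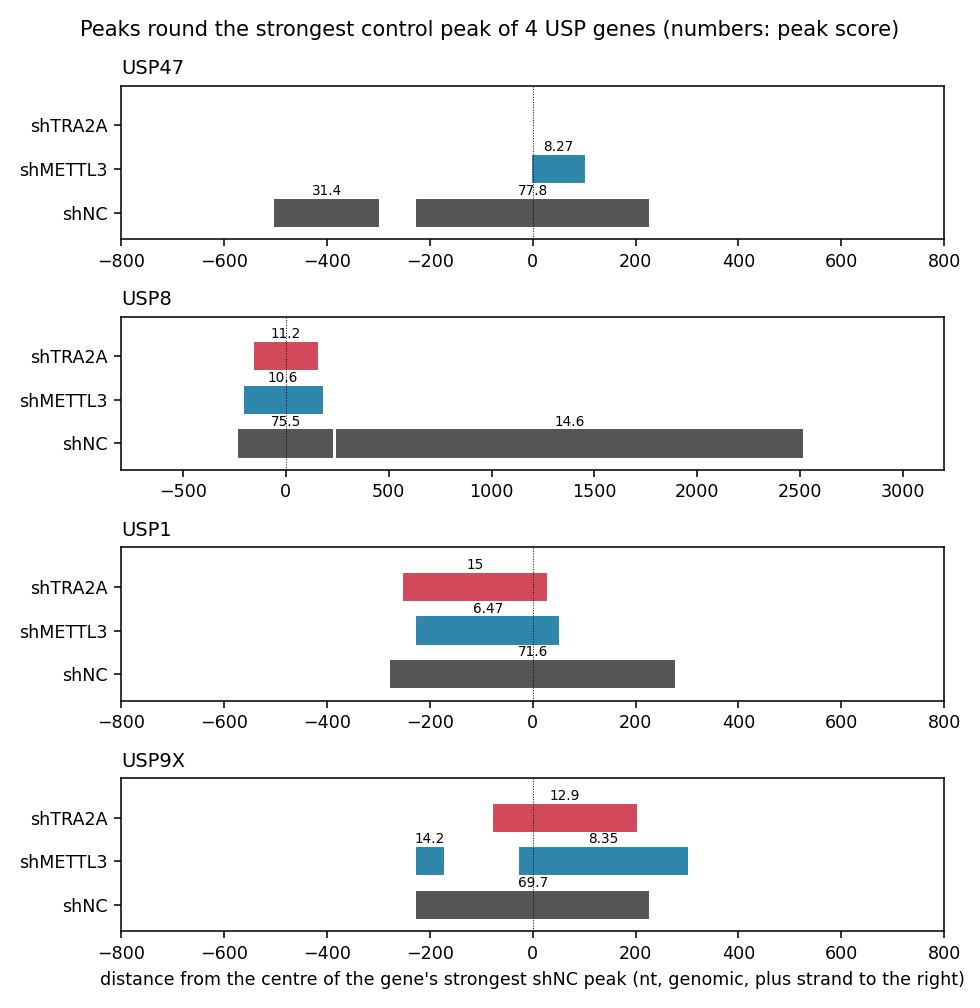
Peaks (boxes to scale, with their scores) of USP47, USP8, USP1 and USP9X in the shTRA2A, shMETTL3 and shNC lists (rows), against the distance in nt from the centre of the gene's strongest shNC peak. In USP8, USP1 and USP9X both knockdown lists have a box on the shNC peak, and in USP47 only the shMETTL3 list has.

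Of 11 members that act on histones and chromatin, 1 had an shTRA2A peak, 2 an shMETTL3 peak and 4 an shNC peak. All coding genes had shares of 8.85%, 15.6% and 19.9%. USP36, a nucleolar deubiquitinase, was the shTRA2A gene. Its shTRA2A peak at chr17:78803459-78803583 (score 9.45) lay inside its shNC peak at chr17:78803434-78803608 (score 17.0) with the same midpoint. Another shTRA2A peak, 3389 nt wide (score 9.44), lay 19524 nt away from that shNC peak. USP36 had no shMETTL3 peak. USP16, a histone H2A deubiquitinase, went the other way, with no shTRA2A peak and an shMETTL3 peak of 100 nt at chr21:29047069-29047168 (score 8.40) inside its shNC peak of 175 nt (score 14.0).

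USP42, a histone H2B deubiquitinase, had no peak in either knockdown list and 5 in shNC. Of these, 4 lay between chr7:6154131 and chr7:6155105, with a best score of 20.9, and the fifth near the 3′ end of the gene scored 11.3. The 3 others of these 4 scored 8.26 to 9.18, in the lowest 20% of the list, where 1.03% and 2.78% of coding-gene peaks were found in shTRA2A and shMETTL3. USP3, another histone deubiquitinase, had 1 shMETTL3 peak of 2999 nt (score 11.97) and none elsewhere. USP27X, a relative of the SAGA complex subunit USP22, had 1 shNC peak (score 9.19). USP7, which acts on the ubiquitin ligase MDM2, had no peak, as had USP21, USP22, USP44, USP49 and USP51.

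Of the 4 members tied to the spliceosome and to RNA granules, none had an assigned shTRA2A peak. An shMETTL3 peak was found in 1 and an shNC peak in 3. All coding genes had shares of 8.85%, 15.6% and 19.9% in shTRA2A, shMETTL3 and shNC. With 4 genes, a count of none cannot be told apart from 8.85%. USP10, a partner of the stress granule protein G3BP1, had no knockdown peak and 3 shNC peaks between chr16:84744684 and chr16:84745408, with scores of 15.0, 21.6 and 18.1. USP4 and its paralogue USP15 act on spliceosome components together with SART3. In USP4 an shMETTL3 peak of 50 nt (score 7.84) lay inside the shNC peak at chr3:49278116-49278190 (score 12.1), and a further shMETTL3 peak ended at the base next to it. USP15 had 1 shNC peak of 50 nt (score 9.38) alone. USP39, itself a spliceosome component, had no assigned peak. An shTRA2A peak of 8471 nt at chr2:85603006-85611476 (score 8.44) touched USP39 and its neighbour C2orf68 and was given to neither. It lay on the plus strand, which is the strand of USP39, but peaks were assigned without regard to strand.

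Of 5 members tied to the proteasome and protein quality control, none had an shTRA2A peak, 2 had an shMETTL3 peak and 2 an shNC peak. All coding genes had shares of 8.85%, 15.6% and 19.9%, so a count of none in shTRA2A says little here. USP5, which disassembles unanchored ubiquitin chains, had 3 shMETTL3 peaks and none in shTRA2A or shNC. They were 3135, 548 and 477 nt wide, off the 25 nt grid, with scores of 11.3, 6.59 and 6.87. The first had its midpoint at 11.7% of the gene body, the nearest to a 5′ end of all USP peaks. USP13, a relative of USP5, had an shMETTL3 peak of 50 nt at chr3:179784147-179784196 with a score of 18.1. It was the best shMETTL3 score of the family, at rank 383 of 5433. This peak shared 25 nt with the end of an shNC span of 2349 nt (score 13.6). USP25 had no knockdown peak and 1 shNC peak (chr21:15878322-15878621, score 22.6). USP14, a proteasome subunit, and USP19 had none.

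Of 4 members grouped under mitochondria and autophagy, USP24 and USP35 had peaks. In USP24 the shTRA2A peak of 50 nt at chr1:55068684-55068733 (score 8.11) lay inside the shNC peak of 250 nt (score 25.5). The shMETTL3 peak of the gene, at chr1:55154134-55154183 (score 14.5), was separated from it by 85250 nt. USP35 had no shNC peak. Its shTRA2A peak at chr11:78209703-78209827 (score 8.03) and its shMETTL3 peak at chr11:78209778-78210052 (score 3.61, rank 5393 of 5433) overlapped each other. USP35 was the only member with a peak in both knockdown lists and none in shNC. USP20 and USP30 had no peak, nor had USP18, the interferon-induced protease of ISG15.

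Of the remaining 10 members, 2 had an shTRA2A peak, 5 an shMETTL3 peak and 7 an shNC peak. All coding genes had shares of 8.85%, 15.6% and 19.9%. USP34, an axin deubiquitinase of the Wnt pathway, had 1 shTRA2A, 3 shMETTL3 and 3 shNC peaks, yet few on common bases. Its shTRA2A peak at chr2:61348432-61348781 (score 9.26) missed the nearest shNC peak, at chr2:61347982-61348156 (score 17.5), by 275 nt. The span of an shMETTL3 peak of 1922 nt (score 7.98), any gaps included, covered that shNC peak. The other peaks lay near the 3′ end, where the USP34 body overlaps that of the pseudogene AHSA2P (chr2:61177418-61188925). There shMETTL3 and shNC each had a peak on both strands, and those of the same strand were 50 to 100 nt apart. USP31 had an shTRA2A peak (score 7.88) at a distance of 125 nt from its shNC peak (score 9.01) and no shMETTL3 peak.

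USP38 had 2 shMETTL3 and 4 shNC peaks at separate places. The shMETTL3 peaks (scores 7.53 and 8.49) were 16261 nt or more from the shNC peaks, which lay between chr4:143214177 and chr4:143214901 with scores of 8.83 to 29.0. In USP40 the shMETTL3 peak (75 nt, score 8.06) was likewise 39796 nt from the shNC peak (1728 nt, score 8.15). In USP32, whose protein resembles that of USP6, the shMETTL3 span of 1591 nt (score 6.79) shared 1541 nt with the span of 1 of 2 shNC peaks (score 18.4). USP53, a tight junction protein, had no knockdown peak and 3 shNC peaks (scores 10.9 to 21.9). USP54 had an identical span of 2993 nt, chr10:73515842-73518834, in shMETTL3 (score 10.8) and shNC (score 20.1), on the strand opposite to the gene. On its own strand USP54 had 1 peak in shMETTL3 (score 11.9) and 1 in shNC (score 8.57), which were 3964 nt apart. USP26, USP29 and USP43 had no peak.

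Along the gene, USP peaks lay towards the 3′ end. The median place of peaks on the gene's strand was 70.1% of the body in shTRA2A, 79.1% in shMETTL3 and 86.5% in shNC, introns included, beside 70.7%, 72.6% and 79.4% over all coding genes. In the last 20% of the body lay 5 of 11 shTRA2A peaks, 12 of 25 shMETTL3 peaks and 26 of 45 shNC peaks, which is 45.5%, 48% and 57.8%, beside 39.3%, 41.6% and 49.2% over all coding genes. In the first 20% lay none of the shTRA2A and shNC peaks and 1 shMETTL3 peak, beside 13.6%, 13.3% and 10.0% of all coding-gene peaks in shTRA2A, shMETTL3 and shNC. No peak touched any of the 53 RefSeq promoter windows of 39 members, which run from 250 nt before to 50 nt after a start. The matching share over all coding genes is not given here, so this count cannot be set against it. For USP9X, USP24, USP31 and USP42 the strand was taken from their peaks.

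**Figure D5:**
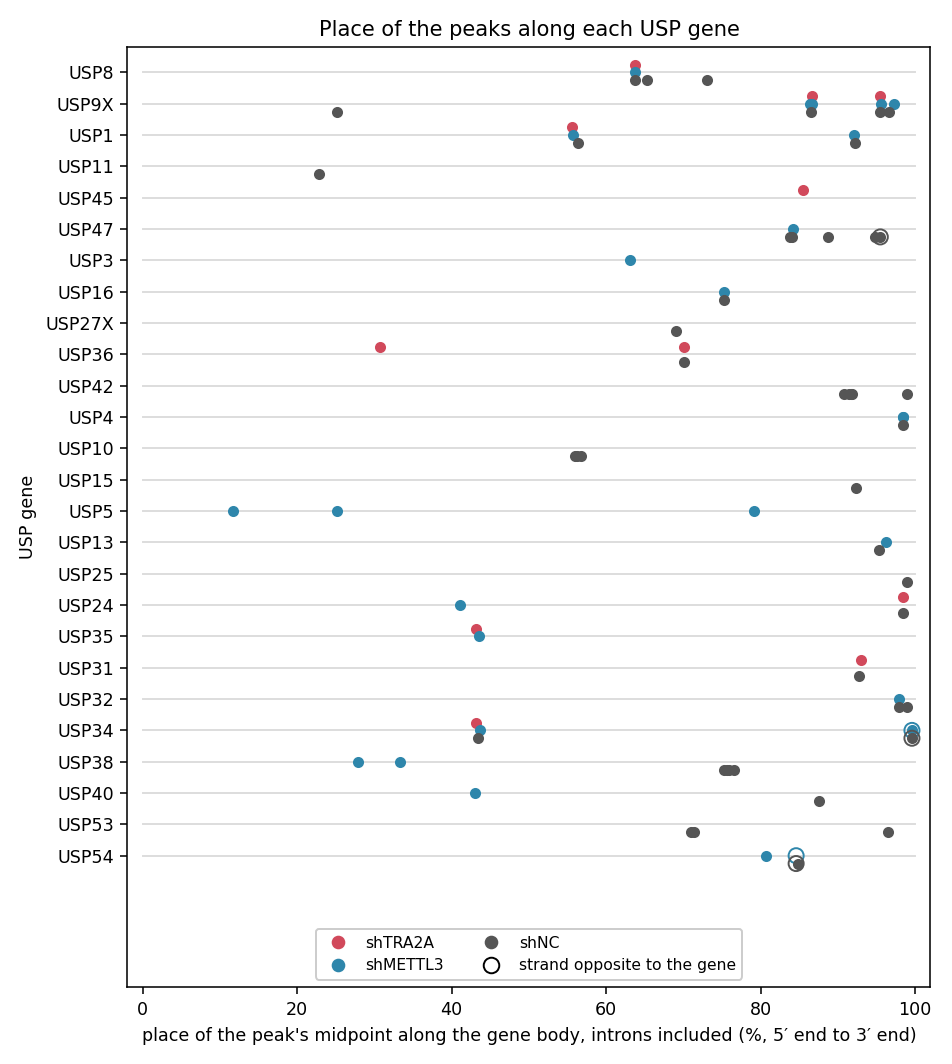
Midpoint of every peak along the body of its USP gene (x axis, percent from the 5′ to the 3′ end, introns included) in shTRA2A, shMETTL3 and shNC, with open circles for peaks on the strand opposite to the gene. The shNC median is 86.5%, and the shMETTL3 peaks of USP24, USP38 and USP40 lie apart from the shNC peaks of the same gene.

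The knockdown lists share the shNC list as their comparison, so their own values are given side by side. Of the 9 members with an shTRA2A peak, 6 also had an shMETTL3 peak, which is 66.7% of the shTRA2A and 37.5% of the shMETTL3 members. Over all coding genes these shares were 56.7% and 32.1%. By position, 4 of 11 shTRA2A peaks overlapped an shMETTL3 peak, in USP1, USP8, USP9X and USP35, which is 36.4%, beside 23.9% over all coding genes. In the other direction it was 4 of 27 shMETTL3 peaks, 14.8%, beside 11.8%.

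Other deubiquitinases and related genes without a USP number, among them the USP relatives CYLD, USPL1 and PAN2, were set beside the USP genes. Of 42 such genes, 4 had an shTRA2A peak, 14 an shMETTL3 peak and 16 an shNC peak. These were 9.52%, 33.3% and 38.1%, beside 8.85%, 15.6% and 19.9% of all coding genes. Over all coding genes with an shNC peak, 29.1% were found again in shTRA2A and 47.7% in shMETTL3. Of the 16 genes of this set with one, it was 4 and 11, which is 25% and 68.8%. Those with the best shNC scores were VCPIP1 (59.4), which acts on Golgi membranes with p97, OTUD4 (48.7), YOD1 (38.2), MYSM1 (37.0), a histone H2A deubiquitinase, ZRANB1 (35.9) and BRCC3 (32.7), which cuts K63-linked ubiquitin chains. OTUD4, YOD1 and OTUD7B had peaks in every list, OTUD4 with 3, 3 and 5 in shTRA2A, shMETTL3 and shNC. No test was made between this set and the USP genes, and the set was chosen with earlier results of these data known.

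Partner proteins activate USP enzymes or tie them to larger complexes. Of 11 partner genes 2 had an shTRA2A peak, 2 an shMETTL3 peak and 7 an shNC peak. These were 18.2%, 18.2% and 63.6%, beside 8.85%, 15.6% and 19.9% of all coding genes. Of the 13 shNC peaks in partner genes none was overlapped in shTRA2A and 2 in shMETTL3. Over all coding genes 9.65% and 18% were. WDR48, the activating subunit of USP1, USP12 and USP46, had 1 shNC peak (score 14.8) alone. G3BP1 likewise had 1 shNC peak (score 20.6) alone, and SART3 had 1, 2 and 1 peaks in shTRA2A, shMETTL3 and shNC. Of 6 genes for ubiquitin and its activating enzymes, UBA6 had 1 peak in every list and UBA1 1 in each knockdown list alone. Among 11 known USP substrates, 5 had an shTRA2A peak, 3 an shMETTL3 peak and 6 an shNC peak. These were 45.5%, 27.3% and 54.5%, beside the same 8.85%, 15.6% and 19.9%. The partner, ubiquitin and substrate sets are short and were chosen with earlier results of these data known. Their shares are therefore no measure of enrichment, and none was tested. MDM2, a ubiquitin ligase, had the best shNC score of the substrates (99.2) and 1, 1 and 4 peaks in shTRA2A, shMETTL3 and shNC. MDM4 (best shNC score 51.5) and EGFR (15.4) also had peaks in every list. MCL1 (34.1) and SMAD4 (18.8) had peaks in shTRA2A and shNC, and MYC (32.3) in shNC alone. All 5 substrates with an shTRA2A peak thus had an shNC peak as well, beside 65.6% of all coding genes with an shTRA2A peak. PCNA, FANCD2 and FANCI were among the substrates with no peak.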

How the data were processed

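Reads of the antibody and input libraries were aligned with HISAT2 2.2.1 on GRCh38, and SAMtools and featureCounts 2.0.1 are named too, per the submitters' processing notes. For peak calling, thresholds and depth, nothing is given in sources used here. The library kit keeps the strand, per the labels' protocols. The authors deposited peak lists with a score per peak in column 5, of unstated scale, and with other values that give start and end. Of 4 lists, 1 matches no label and holds the same bytes as the shTRA2A list, so it was left out.

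Positions were turned to count from 1. A peak was given to the RefSeq coding body (GRCh38.p14) it touches, or to the innermost body that holds it. Overlap needed 1 shared base on the same strand, counted over the whole span of a peak from start to end. Any gaps between the blocks of a peak were not taken out, so overlaps of wide peaks are overlaps of spans. Simulated peaks with known overlaps tested this code. Gene strand came from RefSeq start sites, or from most of the gene's peaks. Python 3.11.15, pandas 2.3.3 and scipy 1.17.1 were used. With 1 list per condition no test was made.

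Members, role groups and lists were chosen with earlier results of these data known. All members are accounted for. Of other lists, genes with peaks in every list or an shNC score in the best 25% are named, up to 6 by score, and other named genes were chosen after their values were seen. RefSeq sequence under the peaks was not used here.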

Additional observations from a re-analysis of the deposited data

How the results depend on the processing

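Of 57 recomputed USP counts, 49 stayed within 1.5 times the reported count and 8 did not. With the better-scoring 50% of each list, the shMETTL3 counts were 8 genes with an shNC peak, 6 overlapped shNC peaks and 10 genes in all, in place of 13, 11 and 16. With the best 2736 peaks of each list they were 6, 4 and 10, and 14 USP genes had an shNC peak in place of 22. With peaks of 1 block, on the 25 nt grid and at most 1000 nt wide, 7 shNC peaks were overlapped in shMETTL3. These settings keep fewer peaks by construction, and the shares over all coding genes were not recomputed under them. All shTRA2A counts stayed within 1.5 times under the settings run, between 5 and 7, 5 and 6, and 7 and 11. The setting with the best 2736 peaks leaves the shTRA2A list whole. Leaving out peaks opposite to the gene's strand, chosen after the data were seen, changed 1 count, from 11 to 10 overlapped in shMETTL3. No paired analysis was possible because each condition has 1 list. Without depth or input levels, a missing peak may fall below detection.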

Other observations

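Most SENP genes encode proteases that remove the ubiquitin-like protein SUMO, SENP8 being an exception. Of 7 SENP genes, 1 had an shTRA2A peak, 5 an shMETTL3 peak and 3 an shNC peak, which is 14.3%, 71.4% and 42.9%, beside 8.85%, 15.6% and 19.9% of all coding genes. None of their 5 shNC peaks was overlapped in either knockdown list, as was so for 77.4% of shNC peaks over all coding genes. SENP6 had 2 shMETTL3 peaks (best score 19.4) and SENP7 and SENP3 had 1 each (scores 12.2 and 6.79), all without a peak in shTRA2A or shNC. SENP5 had 3 shNC peaks (best score 20.8) alone. SENP1 had peaks in every list, 1 in shTRA2A, 2 in shMETTL3 and 1 in shNC. No test of these differences was possible with 1 list per condition, and the SENP genes were chosen with earlier results of these data known.

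Of 5 peaks on the strand opposite to a USP gene, 4 shared bases with a peak of the same list on the gene's strand. None was in shTRA2A, 2 were in shMETTL3 and 3 in shNC, which is 0%, 7.41% and 6.25% of the USP peaks, beside 4.81%, 4.4% and 4.39% over all coding genes. In USP47 the opposite shNC peak of 200 nt lay wholly within a peak of 250 nt on the gene's strand, with scores of 17.7 and 19.2. In USP34 the shNC peaks of both strands shared 192 nt, and the shMETTL3 peaks of both strands shared 50 nt. In USP54 the span of the opposite peak, 2993 nt, shared 75 nt with a peak of the gene's strand in shNC and none in shMETTL3.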
